A study of Homo sapiens with 15 samples.

Results

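Passage 1 (P1) iMGCs, the Müller glial cells grown out of human retinal organoids (ROs), were compared with the neural retina (NR) layer of day 150 ROs, from which they had been isolated. The comparison used 6 of the 15 RNA-seq libraries of the study, chosen by their labels alone: 3 of D150-ROs and 3 of P1 iMGCs. The others were hiPSCs, D70-ROs and P5 iMGCs. They entered no test, and the P5 libraries were not used here. The question was what isolation and the early culture of the glia changed across all genes.

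All 6 libraries came from BC1-GFP, a single wild-type human iPSC line that carries a GFP reporter, so they say nothing of how other lines behave. D150-RO libraries were made from NR layers pooled from 5 ROs per experiment, which had floated in a medium with fetal bovine serum. For P1 iMGCs, such NR layers were dissociated with accutase, plated on Matrigel in DMEM with the same serum, passaged, and collected on day 5 of passage 1. No sorting step was described, so the P1 cultures could hold any cells that attached and survived. The sample records give 3 independent experiments for each group, whereas the deposited text on the whole series gives fewer for the ROs, and the p-values below measure only the spread among these libraries. The same text mentions more than 1 sequencing provider and some adjustment for batches, and does not tie either to given libraries, so batch and group cannot be told apart. In bulk RNA, fewer cells of a type and less RNA per cell cannot be told apart either.

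The work of Müller glia in the retina is largely one of upkeep for its neurons. They clear glutamate and potassium that neurons release, recycle retinoids for cones, and make glutamine. Many of their transcription factors are also those of retinal progenitors. After injury or in culture they can become reactive, a state known for higher intermediate filaments and cytokines, and in fish they can return to a progenitor state.

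Each library held between 15448141 and 17552818 expected counts, which are the reads that the program RSEM assigned to a gene. FPKM of at least 1 was reached by 12619 to 12643 genes in D150-ROs and by 11223 to 11272 in P1 iMGCs. The biological coefficient of variation, which is the spread of a gene among replicates beyond counting noise, was 5.46% across the fit. Replicates of a group differed by more than counting noise alone, so no library was taken as a copy of another. Levels below are FPKM, which is scaled for transcript length and depth, given as mean ± SD over 3 libraries. Fold changes and adjusted p-values are from edgeR's quasi-likelihood test on the counts, with Benjamini-Hochberg adjustment over all genes tested. A differentially expressed gene (DEG) was 2-fold or more apart at an adjusted p under 0.05, and "rose" and "fell" are used only of DEGs. A gene near 0 in either group entered the test only through the group where it was high, and so had to differ. Counts and medians of gene lists therefore describe the members tested and are no measure of the whole list.

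Of 12896 genes tested, 5686 (44.1%) were DEGs between P1 iMGCs and D150-ROs. In P1 iMGCs 2581 genes rose, which is 20.0% of those tested, and 3105 fell, or 24.1%. The falls were steeper than the rises. At 4-fold or more, 1158 genes (8.98%) rose and 1716 (13.3%) fell, and at 16-fold or more 398 (3.09%) rose and 918 (7.12%) fell. In all, 577 genes (4.47%) fell by at least 64-fold, against 148 (1.15%) that rose so far. With adjusted p alone 11206 genes (86.9%) passed, and in 11333 (87.9%) the 6 scaled values did not overlap between the groups. Separation of the groups therefore marks nothing particular in these libraries, and the size of a change is the more telling value. The median log2 fold change was −0.05, and the 5th and 95th percentiles were −5.53 and 3.03.

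**Figure D1:**
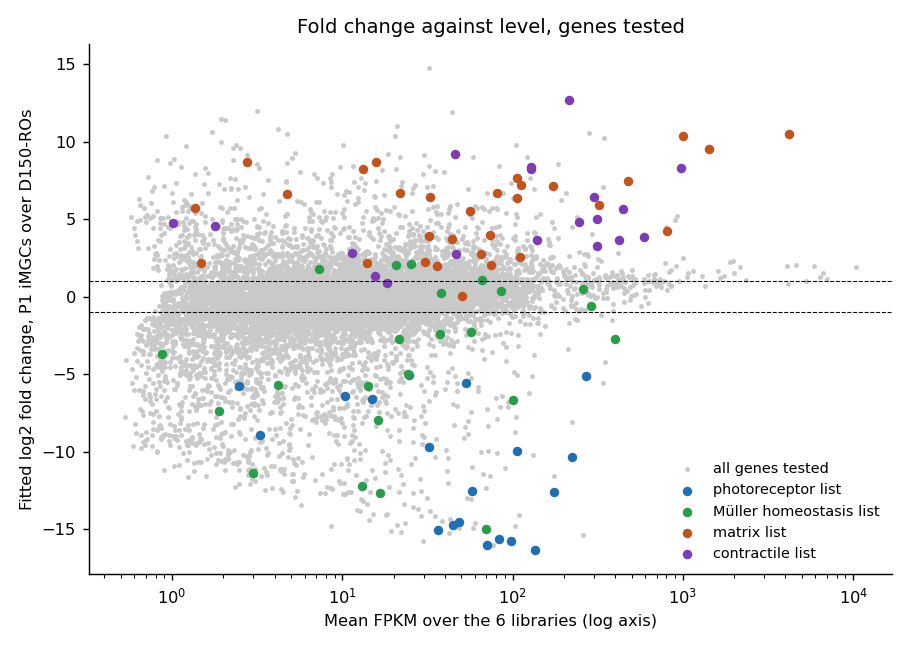
Fitted log2 fold change of P1 iMGCs over D150-ROs (vertical axis) against the mean FPKM of the 6 libraries (horizontal log axis), 1 point per gene tested, with photoreceptor, Müller homeostasis, matrix and contractile genes in color. Dashed lines mark a 2-fold change; FN1 lies farthest right among the matrix genes at a log2 fold change of 10.49, and the photoreceptor genes all lie below the lower line.

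The P1 transcriptome was also far more concentrated. In D150-ROs the 10 most abundant genes took 4.71% to 5.09% of the counts of a library, and in P1 iMGCs 14.6% to 15.0%. In D150-ROs 1403 to 1419 genes were needed to reach 50% of the counts, and in P1 iMGCs 475 to 499. FN1 (fibronectin) alone took 5.61% to 5.86% of all counts in each P1 library. The ranges of the groups were far apart on each of these measures.

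**Figure D2:**
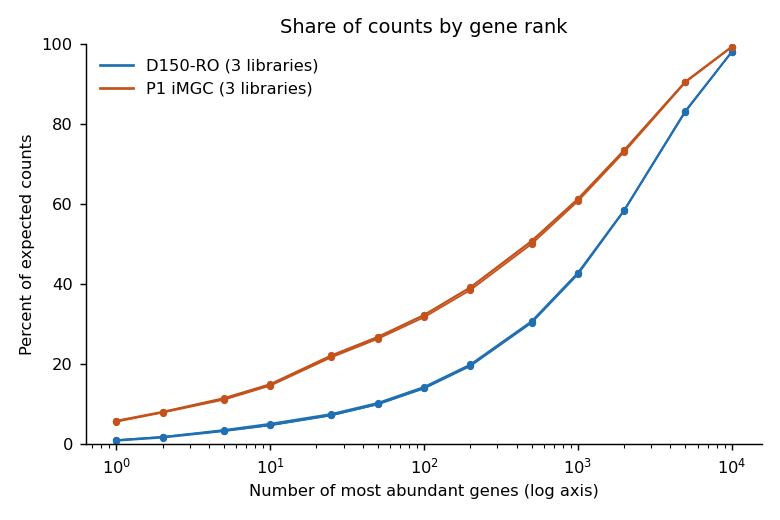
Cumulative percent of expected counts (vertical axis) taken by the most abundant genes of each library, ranked within the library (horizontal log axis); each line is 1 library. At rank 10 the 3 P1 lines stand at 14.6% to 15.0% and the 3 D150-RO lines at 4.71% to 5.09%.

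With libraries composed so differently, the choice of scaling mattered for modest changes. The TMM factors used for the test put the fitted log2 fold changes 0.64 above those from library totals, and hence above ratios of FPKM. YBX1, an RNA-binding protein of messenger particles, shows the gap. Its FPKM was 725.5 ± 43.2 in D150-ROs and 466.5 ± 9.63 in P1 iMGCs, whereas its fitted log2 fold change was 0.01 ± 0.05 (SE, adjusted p = 0.841). With library totals the DEGs numbered 1507 higher and 5173 lower. With a trend on transcript length removed they numbered 3221 higher and 2549 lower, a share of 55.8% higher against 45.4% in the main test. Which of these scalings is nearer to RNA per cell was not tested, and directions below that depend on it are named as such.

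Photoreceptor genes showed the deepest loss. These are the genes of the light-sensing neurons, the factors that specify them, and the phototransduction cascade. All 19 tested photoreceptor genes fell, as did 13 of 13 cone genes and 19 of 21 rod genes, beside 24.1% of all genes. Their median log2 fold changes were −10.31, −11.56 and −9.50, beside −0.05 over all genes tested. With genes that had no P1 count set to the bound that 3 counts allow, the cone and rod medians were −9.23 and −7.99. Of the 19 photoreceptor genes that fell, 16 had a mean under 1 FPKM in P1 iMGCs. So did 11 of the 13 cone genes and 17 of the 19 rod genes that fell. All 20 listed photoreceptor genes, the untested one included, together took 0.810% to 0.865% of counts in D150-ROs and 0.00239% to 0.0031% in P1 iMGCs.

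RCVRN (recoverin, a calcium sensor of photoreceptors, chr17:9896320-9905621 on GRCh38) had FPKM of 257, 278 and 282 in the D150-ROs and no count in any P1 library. It was at least 8214.5-fold lower in P1 iMGCs. CRX, the homeobox factor that drives photoreceptor genes (chr19:47819779-47843330), had 140.1, 136 and 150 FPKM and again no P1 count, at least 6458.6-fold lower. Both were present in every D150-RO and unseen in every P1 library at this depth. AIPL1, a chaperone of the photoreceptor phosphodiesterase, went from 195.9 ± 5.12 FPKM to no count (at least 5624.8-fold lower). NEUROD1 and NEUROD4, proneural factors of photoreceptors and other retinal neurons, went from 167.4 ± 4.52 and 152.7 ± 2.87 FPKM to none. OTX2, which acts upstream of CRX, kept a trace: 447.1 ± 24.9 against 0.283 ± 0.0306 FPKM, a log2 fold change of −10.31 ± 0.10 (adjusted p = 1.77e-19).

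Among cone genes, PDE6H, an inhibitory subunit of the cone phosphodiesterase, had 162, 206 and 289 FPKM in the D150-ROs and no P1 count (at least 1758.8-fold lower). The D150-RO values spread widely and still lay far above the P1 libraries. GNB3, the cone transducin beta subunit, fell 262.6-fold from 448.1 ± 34.6 to 1.03 ± 0.263 FPKM. RXRG and ARR3 (cone arrestin) had no P1 count either. The cone opsins could not be compared, because OPN1SW was at 0.34 FPKM in D150-ROs and OPN1LW at 0. Among rod genes, GNAT1 (rod transducin alpha) had 105, 84.1 and 68.2 FPKM in D150-ROs and no P1 count, and CNGB1, a subunit of the rod channel, 154, 138 and 125 against at most 0.01. Rhodopsin itself was at 0.88 FPKM in D150-ROs and was not tested. The 2 rod-list genes that did not pass as DEGs, GNB1 and SLC24A1, had log2 fold changes of 0.06 and 0.14. GNB1 encodes a G protein subunit used by most cell types.

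The promoters of the photoreceptor genes were read for the core of the CRX motif, TAATCC or GGATTA on either strand. The search covered the 250 bases before the start in the 7319 tested genes with 1 listed start in RefSeq (GRCh38.p14). The core was present in 275 of all 7319 promoters (3.76%), in 88 of the 1598 promoters of genes that fell (5.51%) and in 41 of the 1386 of genes that rose (2.96%). It was present in 5 of 14 rod, 3 of 7 photoreceptor and 1 of 7 cone promoters. A match is a description of letters and not evidence of binding. Stretches of 2 of these promoters are shown 5′ to 3′, with the core in capitals. They were picked because they held the core, and then by size of fall among the stretches that could be shown. Many genes without a stretch shown fell more steeply, such as RCVRN at −16.33. CNGB1 (log2 fold change −12.31) is read from chr16:57971129-57971378 on the minus strand, and GUCA1A (guanylate cyclase activating protein, −11.05) from chr6:42173114-42173290 on the plus strand.
CNGB1: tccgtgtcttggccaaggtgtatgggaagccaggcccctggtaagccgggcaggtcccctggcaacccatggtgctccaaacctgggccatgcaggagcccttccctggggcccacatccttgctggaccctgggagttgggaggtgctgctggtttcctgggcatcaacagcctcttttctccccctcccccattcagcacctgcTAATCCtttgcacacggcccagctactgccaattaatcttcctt
GUCA1A: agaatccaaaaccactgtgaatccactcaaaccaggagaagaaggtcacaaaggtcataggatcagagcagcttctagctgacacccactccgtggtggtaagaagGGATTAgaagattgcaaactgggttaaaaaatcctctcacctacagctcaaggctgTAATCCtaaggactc
The core of CNGB1 began 44 bases before the start, and the 2 cores of GUCA1A 144 and 88 bases before it.

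The inner retinal neurons followed the same direction. Of 15 tested bipolar genes 14 fell and 1 rose (median −8.53, or −6.32 with bounds). Of 12 amacrine and horizontal genes 11 fell and 1 rose (median −6.79, or −6.42 with bounds), and of 10 ganglion genes 7 fell and 2 rose (median −4.05). Over all genes tested 24.1% fell. All 14 bipolar genes that fell had a mean under 1 FPKM in P1 iMGCs. So did 10 of the 11 amacrine and horizontal genes and 6 of the 7 ganglion genes. These entered the test through D150-ROs and so had to differ. CABP5, a calcium-binding protein of bipolar cells, had 222, 212 and 186 FPKM in D150-ROs and no P1 count (at least 2772.2-fold lower). VSX1, a bipolar homeobox factor, went from 20.4 ± 1.72 FPKM to none. PROX1, a factor of horizontal and amacrine cells, fell from 16.2 ± 1.59 to 0.117 ± 0.0551 FPKM. STMN2, a growth-cone protein of young neurons, fell 248.5-fold from 52.7 ± 8.51 to 0.123 ± 0.0874 FPKM. Of the 4 members that rose, the bipolar one was PRKCA, a protein kinase C (log2 fold change 1.85). The amacrine and horizontal one was CALB2 (calretinin, a calcium-binding protein of neurons), which rose from 1.54 ± 0.531 to 3.76 ± 0.791 FPKM (1.80). The ganglion ones were THY1 (4.33) and RBPMS (3.93). Both THY1 and RBPMS serve as ganglion markers within the retina and are made by other cells elsewhere.

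Genes of neuronal function fell with the cell markers. Of 23 synapse genes 20 fell and none rose (median −5.02), where 24.1% of all genes fell. Of the 20, 14 had a mean under 1 FPKM in P1 iMGCs and so entered the test through D150-ROs. SV2B, a synaptic vesicle protein, went from 44.1 ± 2.99 FPKM to no P1 count (at least 3619.9-fold lower), and CACNA1F, the calcium channel of the photoreceptor ribbon synapse, from 24.4 ± 2.3 FPKM to none (at least 1353.7-fold). Of 17 splicing regulators, most of them neuronal, 12 fell and 3 rose. Of the 12, 10 had a mean under 1 FPKM in P1 iMGCs. SRRM4, which directs the inclusion of neuronal microexons, had 40, 37 and 39.4 FPKM in D150-ROs and no P1 count. The regulators that rose were MBNL1, RBFOX2 and PTBP1, with log2 fold changes of 3.12, 1.33 and 1.08. PTBP1 represses neuronal exons in non-neuronal cells. With library totals MBNL1 was the 1 regulator that rose. Of 24 cilium genes 12 fell with TMM factors (median −1.0) and 21 with library totals (median −1.64). The steepest falls were those of RPGRIP1 and MAK of the photoreceptor cilium, whose FPKM of 52.0 ± 5.43 and 45.7 ± 2.92 went to 0 and 0.00667.

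The retinal transcription factors were nearly all lower. Of 22 tested, 21 fell and 1 rose (median −2.79), where 24.1% of all genes fell. Of the 21, 11 had a mean under 1 FPKM in P1 iMGCs. RAX, an eye-field factor that Müller glia keep, had 72.6, 74.6 and 82.2 FPKM in D150-ROs and no P1 count (at least 2299.9-fold). SIX6 went from 37.8 ± 2.4 to 0.0133 ± 0.0115 FPKM, with 2 counts in all 3 P1 libraries together and a fold between 468.5 and 13985.3 (95% counting interval). Other eye-field factors were reduced and still present. PAX6 had 167, 176 and 135 FPKM in D150-ROs against 33.2, 28.8 and 29.9, a 3.23-fold fall, and SIX3 fell from 45.3 to 6.34 FPKM. NR2F2, a nuclear receptor used widely in mesenchyme, was the member that rose, from 8.89 to 150.7 FPKM.

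Notch signaling holds retinal progenitors undifferentiated and favors glial fate. Of 21 tested genes of the pathway 15 fell and 3 rose (median −2.85), where 24.1% of all genes fell. Of the 15, 12 had a mean under 1 FPKM in P1 iMGCs. Those 12 entered the test through D150-ROs and so had to differ. The ligands DLL1 and DLL4 fell from 6.15 ± 0.665 and 5.77 ± 0.0529 FPKM to 0.08 ± 0.0985 and 0.03 ± 0.0173. Among the target genes, HES5 had 10.5, 11.9 and 12.6 FPKM in D150-ROs and no P1 count (at least 163.0-fold lower), HEY1 fell from 25.4 to 0.323 FPKM, and HES1 fell from 17.8 to 5.38. The receptors split. NOTCH1 fell from 32.2 to 2.86 FPKM, whereas NOTCH2 rose from 24.6 to 47.0 and NOTCH3 from 4.92 to 11.7, and with library totals NOTCH2 was no longer a DEG. The ligand JAG1 was not a DEG (18.2 against 22.7 FPKM).

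The genes by which Müller glia are known moved in both directions, most of them down. Of 18 tested identity genes, 12 fell and 1 rose (median −1.51), where 24.1% of all genes fell and 20.0% rose. Of 23 tested genes of mature Müller function, 15 fell and 4 rose (median −2.70), and the share of counts of this list went from 0.414% to 0.446% in D150-ROs to 0.129% to 0.132% in P1 iMGCs. Of the 15, 10 had a mean under 1 FPKM in P1 iMGCs. The share of the identity list did not fall. It was 0.406% to 0.484% in D150-ROs and 0.455% to 0.463% in P1 iMGCs, and its summed FPKM went from between 1720.0 and 1999.0 to between 2314.3 and 2357.9, most of it from the member that rose, VIM.

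VIM (vimentin, the intermediate filament of Müller glia and of many cultured cells) had 1073, 1136 and 985 FPKM in D150-ROs and 2157, 2181 and 2141 in P1 iMGCs. All P1 libraries were above all D150-ROs, and VIM rose 3.17-fold (log2 fold change 1.66 ± 0.06, adjusted p = 1.34e-13). With library totals the log2 value was 1.02. CRYAB, a small heat shock protein, rose from 10.9 ± 1.21 to 30.2 ± 2.45 FPKM, and APOE, the lipid carrier that glia secrete, from 13.6 ± 1.91 to 37.2 ± 3.23. CCL2, a chemokine, had 1.22, 1.49 and 1.23 FPKM in D150-ROs against 11.2, 11.3 and 15.6 in P1 iMGCs, a 15.0-fold rise. The third P1 library was the highest and the groups did not overlap.

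The enzymes and transporters of mature Müller glia fell. GLUL (glutamine synthetase) had 101, 102 and 97.6 FPKM in D150-ROs and 14.6, 12.3 and 13.3 in P1 iMGCs, a 4.75-fold fall (log2 fold change −2.25 ± 0.06, adjusted p = 3.86e-15). SLC1A3, the glutamate transporter GLAST, had 28.7, 27.6 and 27.8 FPKM against 0.37, 0.39 and 0.36, a 53.2-fold fall. GLUL thus stayed at a clear level in every P1 library, and SLC1A3 lay under 1 FPKM in each. RLBP1, which encodes the retinoid carrier CRALBP (chr15:89209869-89221751), had 36.9, 34 and 29.6 FPKM in D150-ROs and no count in any P1 library (at least 641.3-fold lower). CA2, carbonic anhydrase II, had 23.8, 24.5 and 29.6 FPKM and also no P1 count (at least 476.9-fold). The P1 libraries thus held no read of these 2 Müller genes at totals of 16050334 to 17552818 counts.

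Others of this list followed. WIF1, a secreted WNT inhibitor, went from 140.1 ± 10.2 FPKM to no count, CLU (clusterin) fell from 727.1 ± 68.5 to 66.0 ± 6.9, and TF (transferrin) from 200.1 to 0.273. KCNJ10, the potassium channel of Müller end feet, fell from 3.77 to 0.02 FPKM. AQP4, the water channel, was at 0.193 FPKM in D150-ROs and at 0 in P1 iMGCs and was not tested. SPP1 (osteopontin) had 387, 436 and 398 FPKM against 176, 167 and 160. It was lower in every P1 library but was not a DEG, with a log2 fold change of −0.62 ± 0.05, and it became one with library totals, at −1.26. DKK3, CD9 and DBI, also expressed in Müller glia, were not DEGs, and DKK3 stood at 273.1 and 246.2 FPKM.

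Of the factors of Müller identity, SOX9, which glia keep from the progenitor stage, had 38.9, 46.5 and 42.2 FPKM in D150-ROs and 5.48, 4.98 and 5.17 in P1 iMGCs (5.24-fold lower). It was reduced and present in every P1 library. SOX2 had 67.2, 77 and 65.4 FPKM against 0.57, 0.41 and 0.68, an 80.2-fold fall, and SOX8 fell from 17.7 to 0.0533 FPKM. NES (nestin, a filament of progenitors) had 198, 201 and 144 FPKM against 38.1, 41 and 39.6 (2.93-fold lower). The third D150-RO library was the lowest of its group for both PAX6 and NES and still above all P1 libraries. Of the NFI family of glial factors, NFIB fell, with a log2 fold change of −1.48. NFIA, NFIC and NFIX were not DEGs, although NFIA passed as lower with library totals, at −1.14. NFIC was at 13.3 FPKM in both groups, and NFIX at 27.7 and 26.9.

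**Figure D3:**
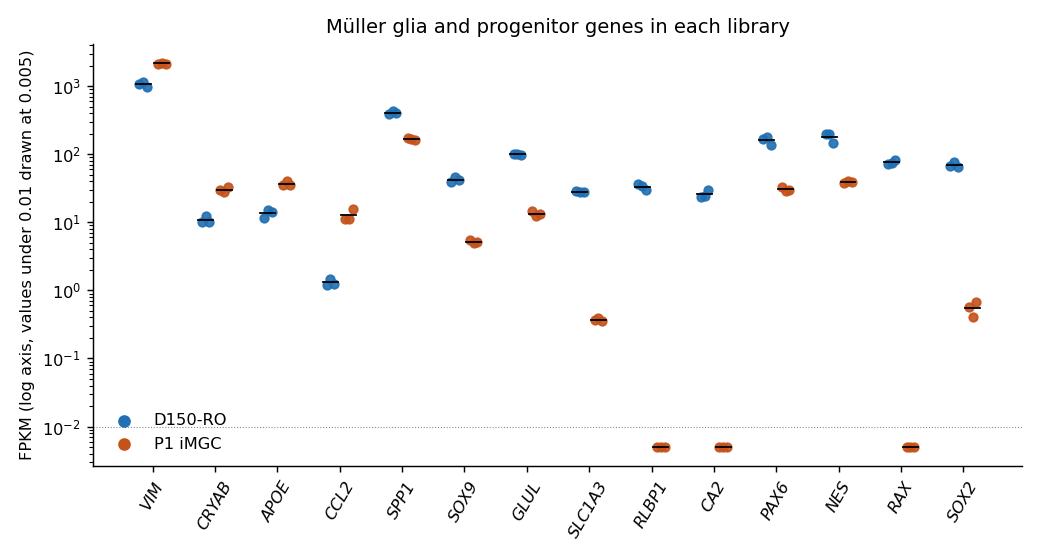
FPKM of 14 Müller glia and progenitor genes (vertical log axis) in each D150-RO and P1 iMGC library, with a bar at the mean of each group; values of 0 are drawn at 0.005, under the dotted line. VIM, CRYAB, APOE and CCL2 lie higher in P1 iMGCs, and RLBP1, CA2 and RAX are at 0 in all 3 P1 libraries.

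Genes linked to reactive gliosis were mostly higher, without GFAP. Of 19 tested, 13 rose and 2 fell (median 3.12), and with library totals 12 rose and 4 fell. With TMM factors 20.0% of all genes rose. Of the 13, 1 had a mean under 1 FPKM in D150-ROs. OSMR, the oncostatin M receptor, had 0.38, 0.41 and 0.31 FPKM in D150-ROs and 19.7, 18.7 and 21.5 in P1 iMGCs, a 93.4-fold rise. LIF, a cytokine of stressed retina, rose from 6.0 ± 1.64 to 77.4 ± 4.65 FPKM, and TNC (tenascin C) from 23.8 to 324.5. ANXA1, a phospholipid-binding protein, rose from 4.96 ± 1.22 to 157.6 ± 1.19, and HSPB1, a small heat shock protein, from 22.3 to 246.7. GFAP, the filament most used to mark reactive glia, had 1.85, 1.76 and 1.73 FPKM in D150-ROs and 0.16, 0.18 and 0.01 in P1 iMGCs, a 10.8-fold fall. SOCS3, a feedback inhibitor of cytokine signaling, also fell, from 6.28 to 1.77 FPKM. CD44 and STAT3 were not DEGs. Several of the members that rose, such as ANXA2 (112.1 to 1487.5 FPKM), are made by many adherent cell types.

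Extracellular matrix genes formed the largest gain in share of counts among the lists. Of 30 tested, 29 rose and none fell (median 6.14), where 20.0% of all genes rose, and COL6A1 was the member that did not. Of the 29, 7 had a mean under 1 FPKM in D150-ROs. The list took 0.21% to 0.217% of counts in D150-ROs and 10.3% to 10.7% in P1 iMGCs. FN1 (fibronectin, chr2:215360440-215436172) had 7.18, 10.3 and 9.35 FPKM in D150-ROs and 8173, 8548 and 8298 in P1 iMGCs. This is a log2 fold change of 10.49 ± 0.13 (adjusted p = 1.31e-18), with every P1 library far above every D150-RO. COL1A1, the main chain of type I collagen, rose 1312.8-fold from 2.77 ± 0.09 to 2000.3 ± 53.5 FPKM. TGFBI, a matrix protein induced by TGF-β, rose 752.3-fold from 6.13 ± 0.882 to 2822.5 ± 84.3. The basement membrane chains COL4A1 and COL4A2 reached 946.5 and 618.3 FPKM from 7.98 and 20.8. The crosslinking enzymes LOX and LOXL2 reached 211.6 and 342.5 from 1.64 and 4.04. SPARC, a matrix glycoprotein, was already at 113.8 FPKM in D150-ROs and rose to 1502.7.

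Contractile genes of the smooth-muscle type, which build actin stress fibers, rose in 18 of 19 tested cases and fell in none (median 4.75). Over all genes tested 20.0% rose. Of the 18, 4 had a mean under 1 FPKM in D150-ROs and so entered the test through P1 iMGCs. TAGLN (transgelin) had 8.21, 6.74 and 7.42 FPKM in D150-ROs and 1848, 2007 and 1967 in P1 iMGCs, a 313.1-fold rise. ACTA2 (smooth muscle α-actin) had 1.57, 0.94 and 1.67 against 241, 266 and 263 FPKM, and ACTG2 (smooth muscle γ-actin) at most 0.34 against 409, 472 and 398. The groups were far apart for all of these. MYH9, the non-muscle myosin of stress fibers, rose from 26.3 to 859.9 FPKM, and TPM1 (tropomyosin) from 114.2 to 1073.3. MYH11, the myosin of differentiated smooth muscle, stayed under a mean of 0.1 FPKM in both groups. Actin genes are near-identical to each other, so reads may be shared between them, and their single values are less certain than their shared direction.

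The CArG box, the binding motif of serum response factor, was searched in the same promoters on both strands. It was present in 62 of 7319 promoters (0.847%), in 21 of 1386 of genes that rose (1.52%), in 12 of 1598 of genes that fell (0.751%) and in 4 of 8 contractile promoters. For the CRX core the contractile count was 0 of 8, and for the CArG box the rod count was 0 of 14. Motifs of the factors AP-1 and TEAD were searched as well. AP-1 matched 2.28% of all promoters, 4.04% of those that rose and 2.38% of those that fell. TEAD matched 9.03%, 11.2% and 8.32%. In contractile promoters AP-1 matched 0 of 8 and TEAD 2 of 8, and in matrix promoters 1 of 19 and 5 of 19. Stretches of 2 of these promoters, both of contractile genes that rose, are shown with the box in capitals. ACTG2 (log2 fold change 12.68) is read from chr2:73892758-73892943 and CNN2 (calponin 2, 3.70) from chr19:1026358-1026580, both on the plus strand.
ACTG2: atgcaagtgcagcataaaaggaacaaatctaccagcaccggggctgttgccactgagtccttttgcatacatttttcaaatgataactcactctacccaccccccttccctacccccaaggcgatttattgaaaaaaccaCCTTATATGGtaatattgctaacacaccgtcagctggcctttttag
CNN2: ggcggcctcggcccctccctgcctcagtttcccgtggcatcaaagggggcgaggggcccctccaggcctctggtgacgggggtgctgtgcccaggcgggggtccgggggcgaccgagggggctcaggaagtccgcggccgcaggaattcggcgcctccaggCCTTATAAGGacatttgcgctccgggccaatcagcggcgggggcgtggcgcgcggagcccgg
The boxes began 110 and 89 bases before the starts of ACTG2 and CNN2.

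Adhesion genes rose in 16 of 22 tested cases and fell in 1 (median 3.30), beside 20.0% of all genes that rose. Of the 16, 3 had a mean under 1 FPKM in D150-ROs and so entered the test through P1 iMGCs. ITGB1, the beta subunit shared by most matrix-binding integrins, had 75.8, 78.4 and 76.6 FPKM in D150-ROs and 1751, 1804 and 1777 in P1 iMGCs, a 36.6-fold rise. ITGA11, a collagen receptor chain, rose from 0.137 ± 0.00577 to 59.8 ± 1.84 FPKM, and ITGA5, the fibronectin receptor chain, from 7.07 to 125.9. CAVIN1, which coats caveolae, rose from 7.79 ± 1.11 to 200.5 ± 2.03. ITGB8, an integrin of neural progenitors and glia that activates TGF-β, was the member that fell, from 28.2 to 6.66 FPKM.

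**Figure D4:**
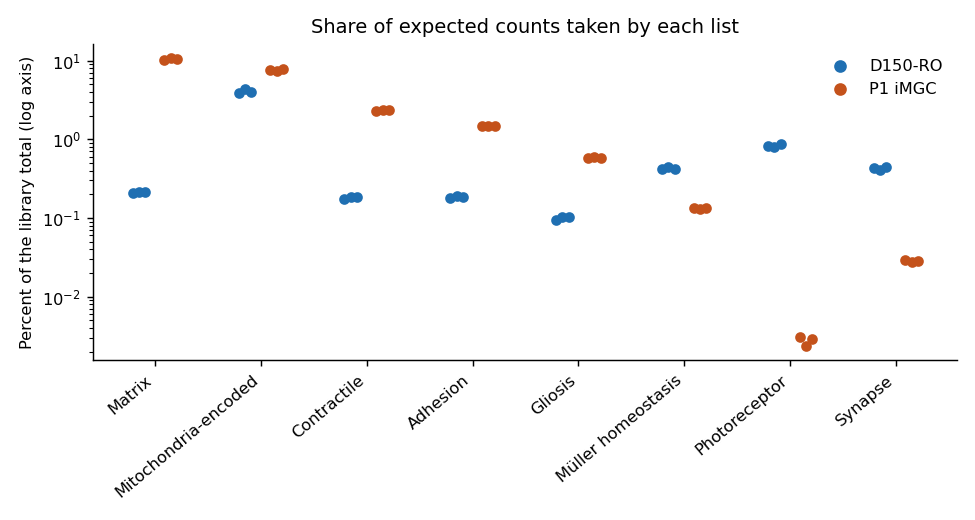
Percent of the expected counts of each library (vertical log axis) taken by the summed genes of 8 lists, 1 point per library. The matrix list stands at 0.21% to 0.217% in D150-ROs and 10.3% to 10.7% in P1 iMGCs, and the photoreceptor list falls from at least 0.810% to at most 0.0031%.

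Of 16 listed transcription factors of mesenchymal transition, 9 reached the level needed for the test. All 7 of them that rose had a mean under 1 FPKM in D150-ROs and entered the test through P1 iMGCs, so their number says nothing of the list. SNAI2 had 0.52, 0.48 and 0.39 FPKM in D150-ROs and 43.2, 44.7 and 44.9 in P1 iMGCs, a 167.4-fold rise. RUNX2 and RUNX1 rose from 0.423 ± 0.117 and 0.36 ± 0.0557 to 12.7 ± 0.674 and 6.95 ± 0.335 FPKM. ZEB1 and ZEB2 were already at 34.4 and 54.8 FPKM in D150-ROs and were not DEGs, although ZEB2 passed as lower with library totals. Of the 7 members not tested, TWIST2 was the highest in P1 iMGCs, at 0.03 against 1.48 FPKM, and PRRX1 was under a mean of 0.1 FPKM in both groups.

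Genes of the YAP and TEAD pathway, which responds to cell spreading and stiff surfaces, rose in 15 of 20 tested cases and fell in none (median 1.88). Beside them, 20.0% of all genes rose. Of the 15, 1 had a mean under 1 FPKM in D150-ROs. ANKRD1, a target gene, had 1.6, 1.92 and 2.18 FPKM in D150-ROs and 246, 243 and 262 in P1 iMGCs, a 204.7-fold rise. The targets CCN1 and CCN2 rose from 10.6 and 20.1 to 277.3 and 455.8 FPKM. The effectors themselves moved less: YAP1 rose from 30.3 to 56.8 FPKM and WWTR1 (TAZ) from 20.4 to 29.4. With library totals 12 members rose and 3 fell, YAP1 stayed a DEG at a log2 fold change of 1.08, and WWTR1 at 0.54 did not.

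In the TGF-β pathway 12 of 21 tested genes rose and 2 fell (median 1.38), and with library totals 10 rose and 5 fell. With TMM factors 20.0% of all genes rose. Of the 12, 2 had a mean under 1 FPKM in D150-ROs. Among ligands, INHBA (activin A) rose 123.0-fold from 1.44 ± 0.0808 to 108.4 ± 4.65 FPKM, and TGFB1 and TGFB2 rose from 6.51 and 22.2 to 51.3 and 185.0. The receptor TGFBR2 rose from 1.61 to 17.8 FPKM. Of the intracellular mediators SMAD2 fell, from 152.9 to 45.5 FPKM, and SMAD3 rose with TMM factors but not with library totals. LTBP2, which belongs to a family of proteins that hold TGF-β in the matrix, had 2.52, 2.82 and 2.84 FPKM in D150-ROs and 45.3, 47.6 and 46 in P1 iMGCs, a 25.8-fold rise.

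Secreted factors for neurons and vessels exchanged members. Of 18 tested trophic genes 12 rose and 4 fell (median 3.45), and 6 of the 12 had a mean under 1 FPKM in D150-ROs. Over all genes tested 20.0% rose and 24.1% fell. GDNF, a survival factor for photoreceptors and other neurons, had 0.02, 0.03 and 0.02 FPKM in D150-ROs and 8.2, 5.97 and 5.32 in P1 iMGCs, a 322.7-fold rise. BDNF rose from 0.647 to 12.6 FPKM and HBEGF, an EGF receptor ligand, from 4.93 to 70.6. IGF2 fell from 16.7 ± 1.81 to 0.0367 ± 0.0306 FPKM, PTN (pleiotrophin) from 67.0 to 1.24, and HGF from 1.21 ± 0.205 to no count. VEGFA was not a DEG (57.8 against 35.0 FPKM, log2 fold change 0.01).

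Cell cycle genes were at similar levels in the groups. Of 27 tested, 9 rose and 1 fell (median 0.73) with TMM factors, where 20.0% of all genes rose and 24.1% fell. With library totals 1 rose and 4 fell (median 0.08), so the direction of this list depends on the scaling. MKI67, the standard marker of cycling cells, had 4.31, 5.71 and 6.58 FPKM in D150-ROs and 4.48, 3.73 and 4.31 in P1 iMGCs, and the groups overlapped. Its log2 fold change was 0.25 ± 0.11 (adjusted p = 0.046), short of 2-fold. CCND1 (cyclin D1) rose 5.06-fold, from 27.7 ± 2.99 to 90.0 ± 7.37 FPKM. The mitotic genes TPX2, CCNB1 and PLK1 were DEGs with TMM factors and not with library totals, at log2 fold changes of 1.46, 1.46 and 1.35 against 0.82, 0.82 and 0.71 with library totals.

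The inhibitors of cyclin-dependent kinases changed strongly and in both directions, 3 of 8 each way, where 20.0% of all genes rose and 24.1% fell. CDKN2A, the locus of p16, had 0.26, 0 and 0.57 FPKM in D150-ROs and 34.2, 29.5 and 30.4 in P1 iMGCs, a 175.1-fold rise. Its neighbor CDKN2B rose from 1.08 ± 0.113 to 35.0 ± 0.718 FPKM, and CDKN1A (p21) from 38.2 ± 2.0 to 287.0 ± 3.06. CDKN1C (p57), CDKN1B (p27) and CDKN2D (p19), which keep retinal cells out of the cycle as they differentiate, fell from 17.1, 53.4 and 6.56 to 1.42, 11.8 and 1.29 FPKM. The median of 0.23 was −0.42 with library totals.

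Metabolic lists moved by smaller amounts, and are set beside the 20.0% of all genes that rose and 24.1% that fell with TMM factors. Of 21 glycolysis genes 8 rose and 2 fell (median 0.87) with TMM factors, and 6 rose and 5 fell (median 0.22) with library totals. GAPDH had 993, 991 and 906 FPKM in D150-ROs and 2967, 3038 and 2991 in P1 iMGCs (4.87-fold higher), and LDHA, the lactate-making subunit, rose from 77.0 ± 6.84 to 413.4 ± 9.9. The members that fell with TMM factors were the isoforms typical of neurons and glia, ENO2 (399.8 to 24.4 FPKM) and ALDOC (120.9 to 11.5). TPI1 was unchanged in the fit (log2 fold change 0.05) with FPKM of 596.2 and 392.0. Of 22 cholesterol genes 16 rose and none fell (median 1.40), and 8 rose with library totals. MSMO1, a sterol oxidase of the pathway, had 18.7, 18.1 and 19.4 FPKM in D150-ROs and 102, 99.9 and 104 in P1 iMGCs, a 9.32-fold rise.

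The 13 genes of the mitochondrial genome took 3.87% to 4.38% of counts in D150-ROs and 7.37% to 7.72% in P1 iMGCs. With TMM factors 12 of them rose (median 1.53), beside 20.0% of all genes, and with library totals 4. MT-CO1, a subunit of cytochrome oxidase, had 6381, 6446 and 5381 FPKM in D150-ROs and 14760, 14429 and 14823 in P1 iMGCs, 3.77-fold higher. Nuclear genes of oxidative phosphorylation did not follow clearly: 9 of 76 rose and none fell (median 0.47) with TMM factors. Both shares lay below those of all genes, of which 20.0% rose and 24.1% fell. With library totals none of the 76 rose and 3 fell (median −0.17). Of 82 ribosomal protein genes 43 rose (median 1.02), beside 20.0% of all genes, and 4 did so with library totals. RPL22L1 and RPS27L, paralogs of core ribosomal genes, rose most, from 8.6 ± 0.635 and 29.1 ± 4.62 to 73.3 ± 8.99 and 185.0 ± 3.54 FPKM. Ribosomal protein genes share sequence with many pseudogenes, and their single values are less certain.

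Most antigen presentation genes rose. Of 19 MHC class I and interferon genes 15 rose and none fell (median 2.31), where 20.0% of all genes rose and 24.1% fell. Of the 15, 2 had a mean under 1 FPKM in D150-ROs. B2M, the light chain of class I molecules, had 91.7, 109.7 and 100.4 FPKM in D150-ROs and 738, 758 and 749 in P1 iMGCs, an 11.6-fold rise. The class I heavy chain genes are near copies of each other, so their single values are less certain. The interferon targets IFIT1 and IFI6 were not DEGs. Of 13 metallothionein and antioxidant genes 5 rose, none fell and 8 were not DEGs (median 0.73, or 0.08 with library totals). The rises were led by MT2A (7.85 ± 0.776 to 377.9 ± 5.39 FPKM) and followed by MT1E and NQO1. Of 18 immediate-early and stress genes 7 rose and 3 fell, beside 20.0% and 24.1% of all genes. Their median of 0.49 was −0.15 with library totals. IER3 rose from 4.46 ± 0.408 to 155.1 ± 3.29 FPKM, whereas FOS fell from 2.61 to 0.7. JUN was not a DEG, with a log2 fold change of −0.11 and FPKM of 62.5 and 37.2. Of 6 cytokine genes tested 3 rose and 1 fell. IL11 rose from 3.14 ± 0.221 to 11.4 ± 0.707 FPKM and CXCL8 from 0.15 ± 0.173 to 1.64 ± 0.416.

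**Figure D5:**
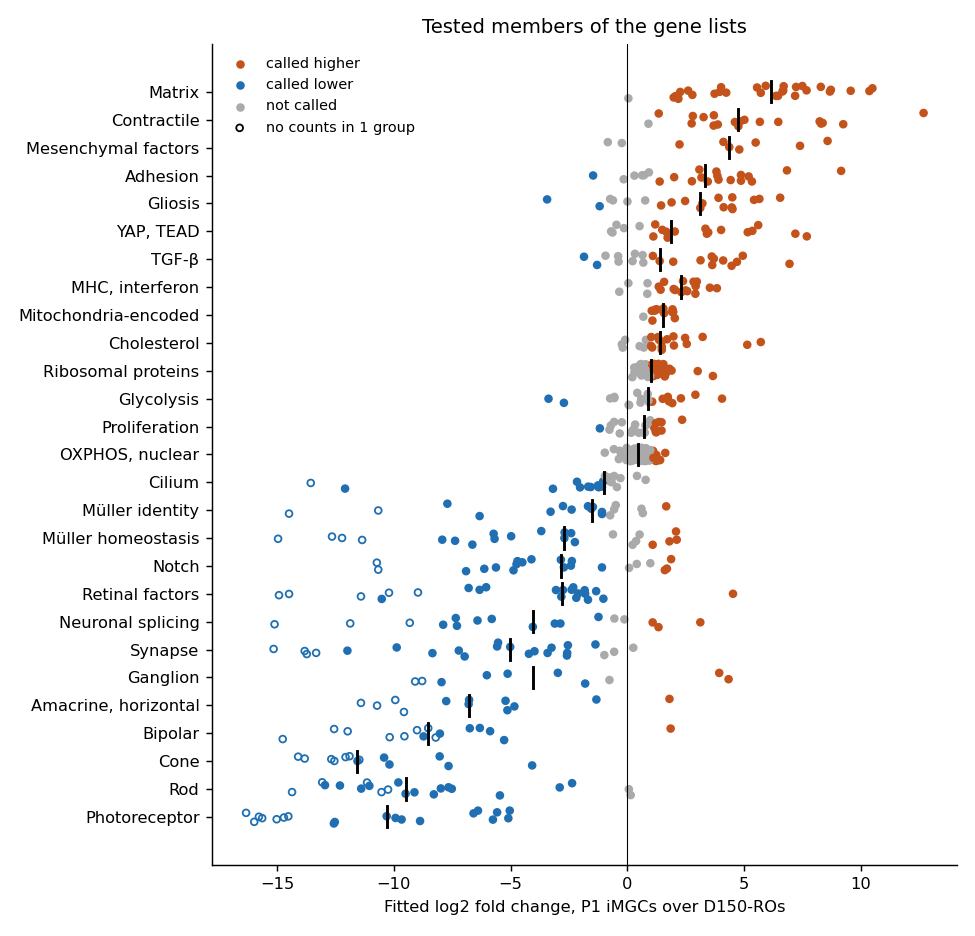
Fitted log2 fold change of P1 iMGCs over D150-ROs (horizontal axis) for every tested member of 27 gene lists, with a bar at the median of each list; hollow points are genes with no count in 1 group, whose fitted value is not a bound. Medians run from 6.14 for matrix genes to −11.56 for cone genes.

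Markers of other cell types were read to see which cells the groups could hold. Microglia markers were all under 1 FPKM in both groups, 12 of 12, and their sum was 0.39 to 1.1 FPKM in D150-ROs and 0.4 to 0.94 in P1 iMGCs. CSF1R was the highest of them in P1 iMGCs, at 0.37, 0.94 and 0.36 FPKM. Of 6 tested astrocyte markers, all fell, among them SLC1A2 (18.4 to 0.0433 FPKM) and PAX2 (3.57 to 0.147), and S100B was under 1 FPKM in every library. Of the 6, 5 had a mean under 1 FPKM in P1 iMGCs and so entered the test through D150-ROs. Of 7 tested pigment epithelium markers 5 fell and 2 rose, and 4 of the 5 had a mean under 1 FPKM in P1 iMGCs. TTR and DCT went from 21.8 ± 3.63 and 12.8 ± 2.54 FPKM to 0 and 0.0133, MITF rose from 1.51 to 4.17, and RPE65 and TYR stayed under a mean of 0.1 FPKM. Lens, forebrain and hindbrain markers gave 1 and 2 tested genes, of which EOMES fell to no count and the lens marker BFSP1 was not a DEG. The residual pluripotency genes POU5F1 and LIN28A fell from 4.17 and 1.47 to 0.167 and 0.0933 FPKM.

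Markers of pericytes and fibroblasts rose in 6 of 12 tested cases and fell in 1 (median 1.77), and their summed share of counts went from 0.0253% to 0.0269% in D150-ROs to 0.0973% to 0.0983% in P1 iMGCs. Over all genes tested 20.0% rose. Of the 6 markers that rose, 4 had a mean under 1 FPKM in D150-ROs. Those 4 entered the test through P1 iMGCs and so had to differ. CSPG4 (NG2) rose from 0.34 ± 0.0608 to 26.5 ± 0.74 FPKM, LUM (lumican) from 0.65 ± 0.144 to 42.8 ± 1.36, and PDGFRB and RGS5 from 16.2 and 5.44 to 62.6 and 62.3. PDGFRA fell from 6.3 to 0.107 FPKM, and PDPN, MCAM, ABCC9, KCNJ8 and S100A4 were not DEGs. LUM and DCN of this list are also on the matrix list. These markers moved with the matrix and contractile genes in the same libraries, and their part in those changes was not tested. The endothelial markers were 3 tested genes: KDR, which retinal progenitors also express, fell from 89.2 ± 3.97 to 0.467 ± 0.0551 FPKM, while TIE1 and EGFL7 rose to 1.34 and 2.83. No other endothelial marker reached the level needed for the test.

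Among the steepest rises, several genes have no place on the lists. SLAMF7, a surface receptor known from immune cells (chr1:160739057-160754821), had no count in any D150-RO and 65.8, 61.8 and 65.2 FPKM in P1 iMGCs, at least 4178.4-fold higher. DYSF (dysferlin, a membrane repair protein) had at most 0.05 FPKM in D150-ROs and 88.2, 89.8 and 86.4 in P1 iMGCs, a 3902.8-fold rise. CPA4, a secreted carboxypeptidase, rose 1538.8-fold from 0.73 ± 0.715 to 562.7 ± 23.3 FPKM. GREM1, a secreted BMP antagonist, rose 1216.7-fold from 0.877 ± 0.232 to 682.6 ± 12.6, and CDCP1, a transmembrane protein phosphorylated by SRC kinases, from 0.0667 ± 0.0379 to 40.5 ± 1.89. The factors FOXD1, known from the temporal retina and from kidney stroma, and MSC (musculin) had 3 counts each over the D150-ROs. Their P1 levels were 42.1 ± 1.3 and 20.2 ± 0.72 FPKM, and the fold lay between 823.4 and 11679.3 for FOXD1 and between 350.9 and 4983.1 for MSC (95% counting intervals).

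Genes at nearly no level in a group give the plainest view of the exchange. In all, 58 genes were under 0.1 FPKM in every D150-RO and at least 1 in every P1 library, whereas 496 genes showed the reverse. Of the 58, 9 were at least 1 FPKM in every hiPSC library, 4 in every D70-RO library, and 17 were under 0.1 in all libraries of both earlier stages. Of the 496 that were absent from P1 iMGCs, 323 were at least 1 FPKM in every D70-RO library and 6 were under 0.1 in both earlier stages. CRABP1, a retinoic acid carrier, was the most abundant of the 496, with 545, 581 and 419 FPKM in D150-ROs, no P1 count (at least 4243.0-fold lower), and a mean of 3641.7 FPKM in D70-ROs. Far more genes thus left detection than entered it. By mean FPKM the largest losses outside the lists were CKB, a brain creatine kinase (667.1 ± 56.6 to 11.2 ± 3.86), and PCBP4, an RNA-binding protein (671.3 ± 31.0 to 22.4 ± 1.79).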

How the data were processed

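Poly(A) RNA-seq of the 6 libraries was analysed from 2 tables that list the same 19684 genes. The authors used HISAT2 for mapping, StringTie for assembly and RSEM for the gene values. Software versions, genome build and annotation are not given in the sources used here. The deposited values are RSEM's expected counts, not normalized, and FPKM values that the authors scaled for length and mapped reads. Whether the batch adjustment that the series text mentions was applied to either is not given in the sources used here, and zero counts and bounds are read from the values as deposited. Between 8.22% and 9.8% of the expected counts in a library were not whole and were rounded. All 19684 identifiers are in GENCODE 29 (GRCh38), which gave positions. A further table has 6 columns that match no sample label by passage, and these were not used.

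The test was edgeR 4.0.16 in R 4.3.3 (TMM, quasi-likelihood, 2-sided, no covariates). Genes entered it when 3 or more of the 6 libraries reached 1 FPKM. It followed checks on simulated data with known changes. limma 3.58.1 and DESeq2 1.42.0 served as alternatives, beside other scalings, filters, a length trend and left-out replicates. Groups not overlapping refers to TMM-scaled values. Where a group had no count of a gene, 3 counts over the group set the bound, which covers counting error only. Depth was 15448141 to 17552818 counts per library.

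Named genes were those the study names or stained, the 10 largest rises and falls above 10 FPKM, the 10 highest levels and largest gains and losses, up to 5 on or off genes, the 5 most abundant with a log2 fold change within 0.1 of 0, and up to 4 members per list with the largest change. Other list members are named to say how a list was made up, after their values were seen. The lists and members were chosen with earlier results of these data known, and no set test was made. Some genes that the rule names are not reported here. Promoters are RefSeq sequences of GRCh38.p14, matched by symbol for 10477 of 12887 genes. Bases inside annotated exons were left out of the stretches shown.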

Additional observations from a re-analysis of the deposited data

How the results depend on the processing

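The total of 5686 DEGs stayed within 1.5 times under every alternative run: DESeq2 (5690), its size factors in edgeR (5697), upper-quartile factors (5739), a trend on transcript length removed (5770), a test against a 2-fold change (4972), no filter (7278 of 17164 genes), FPKM of at least 5 (4204 of 10297), library totals (6680), and limma on log2(FPKM + 0.1) (6561) or log2(FPKM + 1) (5807). The split by direction did not. Against 2581 higher and 3105 lower, library totals gave 1507 and 5173, limma with 0.1 gave 1491 and 5070, and limma with 1 gave 1329 and 4478. The median of all genes moved by −0.64, −0.63 and −0.58. Library totals differ from the main test in the TMM factors alone, whereas the limma settings also change the test and the measure, and the cause of their shift was not tested. Without 1 replicate at a time, DEGs numbered 5663 to 5758, with 2556 to 2606 higher and 3092 to 3160 lower. Of 192 named genes tested, none reversed under any alternative and 177 kept their call with library totals. MT-ND2 lost its call without D150-RO replicate 1, at 0.98. The endothelial list reversed from a median of 1.98 to −6.99 with the FPKM minimum of 5, where TIE1 and EGFL7 leave the test. Replicate numbers did not mark pairs: deviations from the group means of equally numbered libraries correlated between −0.0201 and 0.0271, and a replicate block gave 5691 DEGs, 5683 of them shared. Depth limits what can be said of genes with no count, where only bounds are given, and of low markers such as GFAP and CSF1R.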

Other observations

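The families below were chosen by name after their values were seen, and no test of the families was made. Beside the 20.0% of all genes that rose, 8 of 8 tested annexins rose (median log2 fold change 2.53), as did 8 of 9 S100 proteins (3.70), 10 of 11 matrix metalloproteinases (2.52) and 6 of 6 IGF-binding proteins (4.00). Annexins and S100 proteins bind calcium at membranes, and IGFBP3, which carries insulin-like growth factors in blood, had 6.87, 8.13 and 8.79 FPKM in D150-ROs and 649, 696 and 674 in P1 iMGCs. MMP14, a membrane-bound protease that cleaves collagen, was at 11.4 ± 0.66 and 262.1 ± 3.48 FPKM. Of 7 tested keratins, the filaments of epithelia, 6 rose and 1 fell. KRT18 had 2.12, 1.6 and 2.09 FPKM in D150-ROs against 188, 202 and 192, and KRT7 0.0933 ± 0.0208 against 43.5 ± 2.87. All of the P1 values of these genes lay above the D150-RO values. KRT18 was also at 324.3 FPKM in hiPSCs and at 9.33 in D70-ROs, whereas KRT7 was at 6.62 and 0.333.

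In the other direction, 197 of 458 tested ZNF-named zinc finger genes fell and 16 rose (median −0.87), beside 24.1% of all genes that fell. With library totals 356 fell and 5 rose, where 5173 of all 12896 genes fell and 1507 rose. Of 44 KCN-named potassium channel genes 31 fell and 7 rose (median −3.44), and of 20 voltage-gated calcium channel genes 13 fell and none rose (median −5.53). Of 36 protocadherins 23 fell and 3 rose, and of 19 semaphorins, which guide axons, 11 fell and 3 rose. SEMA3C was among those that rose, from 7.69 ± 2.02 to 87.3 ± 1.66 FPKM. By chromosome, the median log2 fold change ran from −0.34 on chromosome 19, where many zinc finger genes lie, to 0.17 on chromosome 5, and stood at 1.53 for the mitochondrial genome.

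By transcript length, the median log2 fold change was 0.26 in the shortest of 4 equal groups of genes and −0.24 in the longest. The length that RSEM used for a gene was read as the ratio of its count to its FPKM. Among 7450 genes with at least 200 counts in every library, 7 differed in it by at least 2-fold between the groups. A gene was counted only if this log2 difference was also more than 2 times the range within either group. Smaller differences were commoner, as only 72.0% of genes at that count lay within 0.1 on the log2 scale. Of the 7, XIAP, an inhibitor of caspases, was the 1 gene with a longer form in P1 iMGCs, by 1.24 on the log2 scale. Its FPKM ratio was −1.90 on the log2 scale and its fitted log2 fold change −0.01, so for XIAP counts and FPKM give different accounts of the change.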
